A study of Mus musculus with 24 samples.

Results

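The day-night comparison of the NeuroD1 conditional knockout (cKO) retina sets 3 pools of retinas taken at night against 3 pools taken by day. The pools were chosen by their titles, which name the tissue, the genotype and the time, and they are 6 of the 24 arrays of the series. All genes on the arrays were considered, and 18193 genes had a probe set. Each was read from a probe set chosen mainly by its mean signal. The 11693 genes above the array median on at least 3 of the 12 retina arrays were tested. In the cKO retina 15 of them rose at night (0.128%) and 23 fell (0.197%). They included the clock repressor Ciart, the activity-linked receptor Nr4a1, the interferon regulator Irf7 and the neuropeptide genes Vip, Crh and Vgf. Of the 38 genes that passed, 18 also passed in control retina in the same direction, and no gene passed for the difference between genotypes.

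The series measured RNA of pineal glands and retinas of control and cKO mice of the C57BL/6J strain on Affymetrix expression arrays. The cKO mice had both Neurod1 alleles floxed and a Crx-Cre transgene (NeuroD1flox::Crx-Cre+/-), and the control mice had the same floxed alleles without the transgene (NeuroD1flox::Crx-Cre-/-). All mice were 2 months old, of both sexes, and were kept in 12 h of light and 12 h of darkness. Day retinas were taken at ZT6, which is 6 h after lights on, and night retinas at ZT20 under dim red light, so that the time of day and the light differ together and cannot be told apart. Each array held the RNA of 6 pooled retinas, so a p-value here measures the spread between 3 pools a group and not between animals. Cre was driven by the promoter of Crx, a gene active in photoreceptors and pinealocytes. Control retinas at both times were set beside the cKO values. Their arrays also entered the normalisation, the gene filter and the estimate of spread behind the cKO tests.

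Retinal cells hold a circadian clock in which the activators Clock and Arntl drive genes of their own repressors, and light resets it every day. Photoreceptors, the cells that carry rod and cone opsins, also raise their cAMP in darkness and lower it in light, partly through dopamine. NeuroD1 is a basic helix-loop-helix transcription factor of photoreceptors, amacrine cells and pinealocytes, and photoreceptors are known to degenerate without it. A pooled retina holds all of these cells, so fewer cells of a type and less RNA per cell cannot be told apart in any value below.

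The targeted gene was read first. Deposited Neurod1 signals in the cKO pools were 638.6, 774.1 and 293.2 at ZT6, which are 9.97, 12.1 and 4.58% of the control mean at that time. At ZT20 they were 369.4, 3595.4 and 3582.2, which are 5.1, 49.7 and 49.5% of the control mean. Another probe set of the gene read 2.34, 34.6 and 34.3% of control in these night pools. Pools 2 and 3 labelled cKO at ZT20 thus kept a much larger part of the Neurod1 signal than the other 4 cKO pools. The night-day difference of Neurod1 was 1.73 ± 0.65 (log2, SE, n = 3 pools a group) and did not pass the test (adjusted p = 0.47, limma with Benjamini-Hochberg adjustment). It was 2.85 (adjusted p = 4.4e-04) without cKO ZT20 pool 1 and -0.49 without pools 2 and 3. The labels do not say which exons lie between the loxP sites. Both probe sets read low in the other 4 cKO pools, at 4.58 to 12.1% and 2.13 to 7.54% of control. The cause of the higher signal in pools 2 and 3 was not tested. Every direction below is drawn between the libraries labelled cKO at ZT20 and at ZT6, and for each gene that passed the difference without the pools labelled cKO ZT20 2 and 3 is given in the same paragraph.

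**Figure D1:**
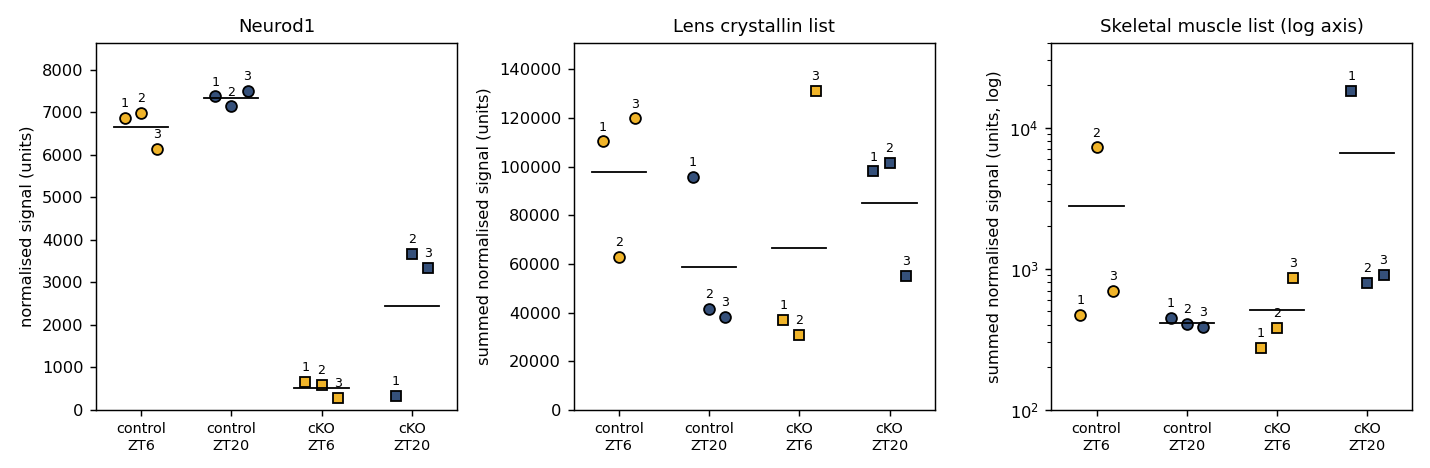
Neurod1 signal, summed signal of the lens crystallin list and summed signal of the skeletal muscle list (log axis) in each of the 12 retina pools, in normalised signal units, with circles for control, squares for cKO, yellow for ZT6, blue for ZT20, pool numbers above the points and lines at the group means. The Neurod1 signal of 2 cKO ZT20 pools lies at 3672 and 3341 units, far above the other 4 cKO pools at 275 to 659, and lens and muscle signals differ widely between pools of every genotype.

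RNA of neighbouring tissues also differed between pools. The summed signal of 15 lens crystallin and lens fibre genes was 37005, 30769 and 131307 units in the cKO pools at ZT6, and 98027, 101396 and 55219 at ZT20. That of 8 skeletal muscle genes was 18094 in cKO ZT20 pool 1 and 273 to 897 in the other 5 cKO pools. The astrocyte and optic nerve oligodendrocyte list, which includes Gfap, was also highest in cKO ZT20 pool 1. Its mean log2 level was 9.25 there and 7.7 to 8.07 in the other 5 cKO pools. This pool is the only night pool left wherever cKO ZT20 pools 2 and 3 are left out. Among pigment cell genes Pmel, a melanosome protein, read 197, 166 and 788 at ZT6 and 902, 1811 and 991 at ZT20, so that all night pools were above all day pools. Array medians were 134.1 to 183.1 units at ZT6 and 125.9 to 166.5 at ZT20, and were brought to a common distribution by quantile normalisation. Log2 ratios of 3' to 5' probe sets were 0.26 to 0.35 and 0.29 to 0.38 for Gapdh and 1.11 to 1.24 and 1.11 to 1.51 for Actb. With the lens level as a covariate 33 genes passed between night and day, and values without the pools concerned are given below. The part of muscle, optic nerve, pigment cells and RNA quality in the results was otherwise not tested. Retinal identity was clear in all 6 pools: Crx read 7382 to 8945 units and Pax6, a factor of amacrine and ganglion cells, 5362 to 5584.

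Of 11693 genes, 38 passed the test between night and day (0.325%), 15 higher at night (0.128%) and 23 lower (0.197%), and 965 had an unadjusted p under 0.05. The sizes of the 38 changes ran from 0.31 to 2.05 (log2), with a median of 0.78, beside a median difference over all genes of -0.012. All 38 had pools that did not overlap between night and day, as did 6.09% of all genes on the higher side and 8.50% on the lower side. With the deposited values and no normalisation between arrays 6 genes passed, 3 in each direction, and the median of all genes moved to -0.065. Without cKO ZT20 pools 2 and 3 a single night pool is left, which is assumed to vary like the other groups. All 38 genes kept their sign there. Because the pools of these genes did not overlap, leaving out pools could not change a sign. Leaving out cKO ZT6 pool 1, 2 or 3 left 13, 16 or 22 genes, and leaving out cKO ZT20 pool 2 left 24. With only the 6 cKO arrays fitted, 26 genes passed, 12 higher and 14 lower. The balance of directions also moved: without cKO ZT20 pool 1, 21 genes were higher and 13 lower, without both cKO ZT20 pool 1 and cKO ZT6 pool 3, 17 and 6, and with median centring 8 and 18. Of the 38 genes, 13 passed whichever of the 12 pools was left out. They are Pgbd1, Irf7, Nr4a1, Zdhhc5, Sik2, Esrrb and Aqp1 among those that rose, and Glmn, Col19a1, Akap5, Antxr2, Traf3ip3 and Acadm among those that fell.

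**Figure D2:**
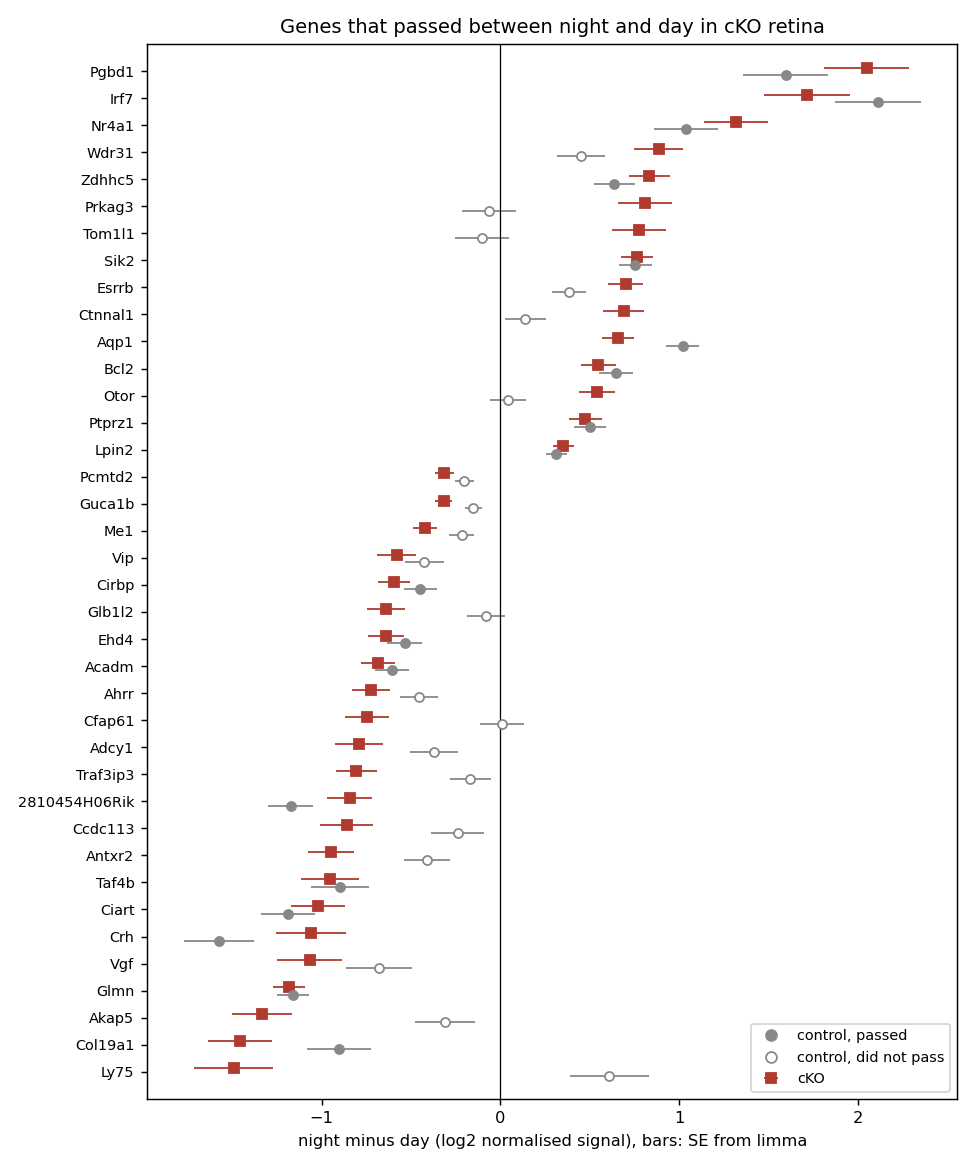
Night minus day difference (log2 normalised signal, bars are the SE from limma, n = 3 pools a group) of the 38 genes that passed in the cKO retina, with red squares for cKO and grey circles for control, filled where the control difference passed as well. cKO values run from -1.49 for Ly75 to 2.05 for Pgbd1, and 34 of the 38 control values lie on the same side of 0.

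The gene with the largest change and the gene with the smallest p are given first. Pgbd1, which encodes a domesticated piggyBac transposase, read 193, 240 and 173 units in the day pools and 719, 689 and 1371 in the night pools. Its difference was 2.05 ± 0.24 (adjusted p = 0.0038). Glmn, whose product glomulin binds and restrains cullin-RING ubiquitin ligases, read 3239, 3330 and 3224 by day and 1412, 1313 and 1573 at night. It fell by 1.18 ± 0.09 and had the smallest p of all genes (adjusted p = 6.5e-05), and the spread within each group was far smaller than the gap between them. Glmn and Pgbd1 were the genes that passed under all 30 alternative settings tried. With night pool 1 as the only night pool their differences were -1.20 and 1.76.

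Clock genes came next. Ciart, also known as Chrono, is a repressor that binds the Clock and Arntl activators at their target promoters. It read 686, 689 and 668 units by day and 412, 283 and 300 at night. The day pools lay close together, while night pool 1, the pool of low Neurod1 signal, was the highest of the night pools. It fell by 1.02 ± 0.15 (adjusted p = 0.0088), beside -1.19 ± 0.15 in control retina. The difference was -0.70 with night pool 1 as the only night pool (adjusted p = 0.34), and the adjusted p was 0.054 without cKO ZT6 pool 1 or 2.

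The Ciart promoter is shown because this gene alone among the tested clock repressors passed, and its upstream sequence carries several copies of the E-box, the element that the Clock and Arntl activators recognise. The sequence is the 250 bases before the annotated start at chr3:95882229-95882478, minus strand, from RefSeq on GRCm38.p6, written 5' to 3', with each match to CACGTG in capitals.
Ciart: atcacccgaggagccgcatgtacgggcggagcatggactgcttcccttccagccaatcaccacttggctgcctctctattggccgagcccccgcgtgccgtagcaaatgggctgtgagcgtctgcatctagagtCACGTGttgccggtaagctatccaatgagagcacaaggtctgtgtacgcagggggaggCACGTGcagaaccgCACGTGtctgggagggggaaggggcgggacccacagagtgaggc
The 3 matches begin 116, 58 and 44 bases upstream of the start. CACGTG reads the same on both strands and was found in 6.02% of 32851 mouse promoter windows of this length, and at least 3 copies were found in 20 of them (0.061%). Of the 38 genes that passed, 32 had a promoter in the table used, with 40 promoters in all. The 6.02% is a share of windows, and the share of all genes with a match was not computed. Of the 32 genes 4 had an E-box: Ciart and Adcy1, which fell, and Wdr31 and Lpin2, which rose. The other 3 are shown for comparison, at chr11:7063183-7063432 (plus strand), chr4:62470900-62471149 (minus strand) and chr17:71183282-71183531 (plus strand).
Adcy1: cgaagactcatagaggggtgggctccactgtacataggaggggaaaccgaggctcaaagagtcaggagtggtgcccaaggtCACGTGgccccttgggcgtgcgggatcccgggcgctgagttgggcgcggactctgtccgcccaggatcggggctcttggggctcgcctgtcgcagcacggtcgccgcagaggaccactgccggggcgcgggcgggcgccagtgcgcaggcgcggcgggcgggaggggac
Wdr31: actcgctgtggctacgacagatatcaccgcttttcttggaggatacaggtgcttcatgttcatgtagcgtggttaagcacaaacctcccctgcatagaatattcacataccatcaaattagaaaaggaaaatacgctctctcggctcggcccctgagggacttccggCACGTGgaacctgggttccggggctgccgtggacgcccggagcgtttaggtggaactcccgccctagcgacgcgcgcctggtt
Lpin2: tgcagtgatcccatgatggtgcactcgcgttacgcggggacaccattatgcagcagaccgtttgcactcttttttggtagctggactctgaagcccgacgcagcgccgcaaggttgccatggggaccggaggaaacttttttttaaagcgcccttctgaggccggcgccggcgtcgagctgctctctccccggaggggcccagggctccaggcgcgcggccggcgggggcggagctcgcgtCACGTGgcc
Each of these 3 windows holds 1 match, beginning 169, 83 and 9 bases upstream of the start, and Lpin2 has 2 further promoters without a match. The D-box TTATGTAA or TTACGTAA, the cAMP response element TGACGTCA, the Ror response element and the Stat site TTCCNGGAA were searched on both strands. They had no match in the promoters of the 32 genes that had a promoter. An E-box was also found in promoters of Per1, Cry1, Bhlhe41 and Tef, clock genes that did not pass. The 5 other motifs were found in 0.819, 0.113, 1.55, 0.177 and 0.913% of all promoter windows.

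The other clock repressors did not pass. Of 12 tested members 1 fell, 11 had a difference below 0, and 4 had night pools entirely below the day pools, namely Ciart, Per1, Cry2 and Csnk1d, as did 8.50% of all genes. The median was -0.15, beside -0.012 over all genes. The period gene Per1 read 536, 616 and 573 units by day and 506, 448 and 521 at night (-0.22 ± 0.12, adjusted p = 0.68). Per2 read 911, 846 and 843 against 705, 948 and 658, so that night pool 2 was above every day pool (-0.18 ± 0.14, adjusted p = 0.83). Nr1d1, the Rev-erb alpha receptor that represses Arntl, read 2188, 2302 and 1989 against 1936, 1670 and 2152 and its groups overlapped (-0.17 ± 0.12, adjusted p = 0.81). The remaining repressors ranged from -0.34 for the casein kinase Csnk1e to 0.14 for Per3, with Cry1 at -0.07, Cry2 at -0.26, Nr1d2 at -0.03, Bhlhe40 at -0.12, Bhlhe41 at -0.11 and Csnk1d at -0.12.

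Of the 9 tested clock activators and output factors 0 passed by limma, 3 had an unadjusted p under 0.05 (Nfil3, Rorb and Dbp), and the median was 0.02. Nfil3, a repressor acting on D-box elements, read 563, 659 and 521 units by day and 767, 748 and 833 at night (0.42 ± 0.11, adjusted p = 0.20). Rorb, a nuclear receptor of clock cells and photoreceptors, read 2514, 2722 and 2386 against 3103, 3171 and 3677 (0.38 ± 0.10, adjusted p = 0.18). The night pools of both genes were above all day pools, and in control retina both passed, at 0.57 ± 0.11 and 0.58 ± 0.10, but the differences between genotypes, -0.14 ± 0.16 and -0.20 ± 0.14, did not pass. The D-box activator Dbp read 3069, 3750 and 3465 by day and 2812, 2496 and 2967 at night (-0.31 ± 0.11, adjusted p = 0.42). Arntl was at 0.02 ± 0.08, Clock at -0.03 ± 0.08, Npas2 at 0.19 ± 0.18, Rora at 0.06 ± 0.09, Tef at 0.00 ± 0.06 and Hlf at -0.07 ± 0.08. Arntl day pools, at 2221, 2175 and 2166, lay within the range of the night pools, 2177, 2124 and 2372.

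**Figure D3:**
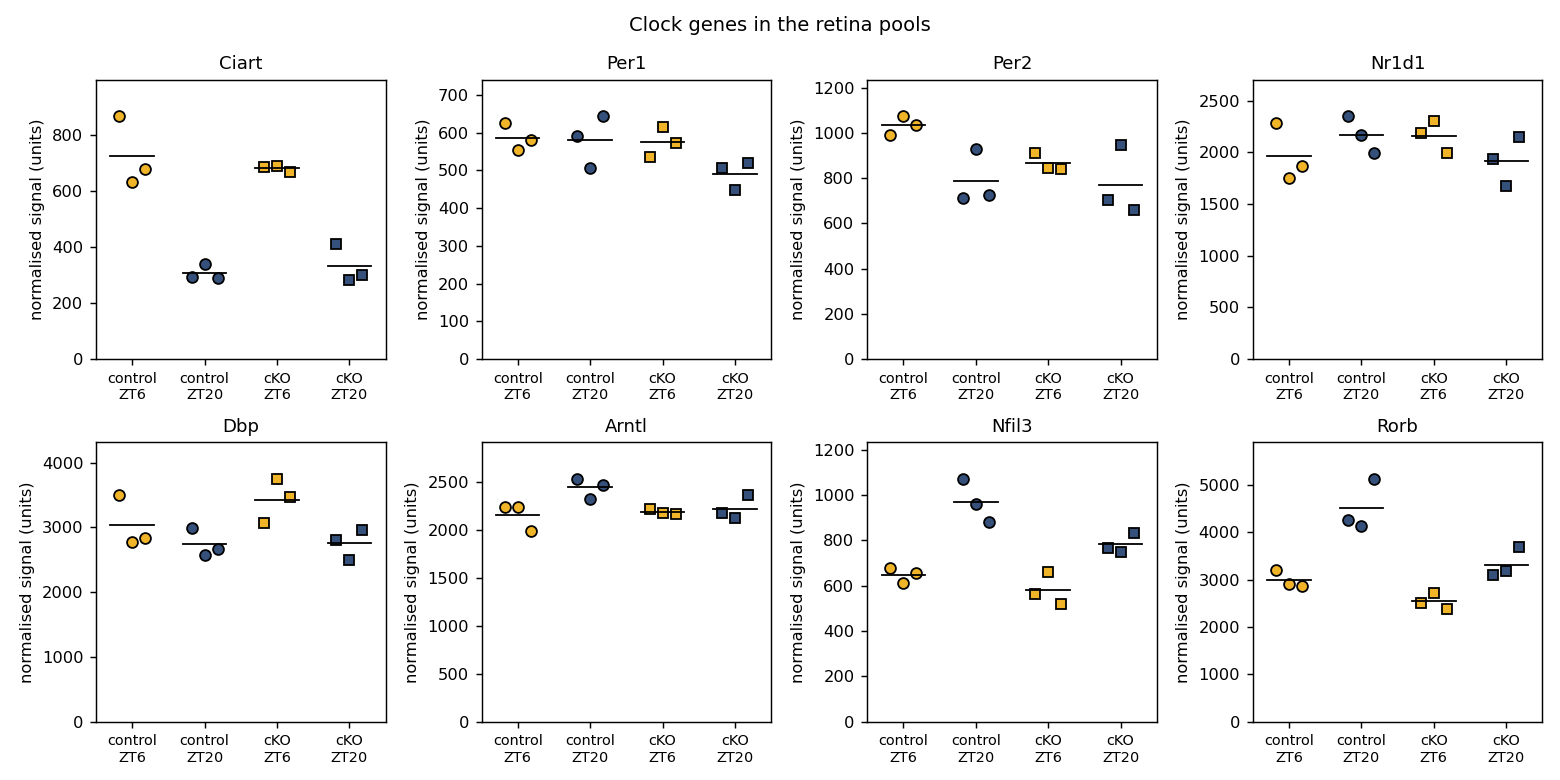
Normalised signal (units) of 8 clock genes in each retina pool, with circles for control, squares for cKO, yellow for ZT6, blue for ZT20 and lines at the group means. Ciart night pools, at 283 to 412 units in cKO, lie well below the day pools at 668 to 689, whereas Per2, Nr1d1 and Arntl overlap between night and day in cKO.

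Among genes linked to darkness and cAMP in the retina, 16 were tested, of which Nr4a1 rose and Adcy1 fell. The median of the list was 0.37, and 6 members had night pools above all day pools and 3 below, beside 6.09% and 8.50% of all genes. Nr4a1, an orphan nuclear receptor induced within minutes by activity and cAMP, read 182, 218 and 236 units by day and 474, 477 and 732 at night. The rise of 1.32 ± 0.18 (adjusted p = 0.0063) left every night pool well above the highest day pool, and it was 1.11 with night pool 1 alone (adjusted p = 0.12). Adcy1, the calcium-stimulated adenylyl cyclase of photoreceptors and other neurons, read 1930, 2375 and 1727 by day and 1030, 1093 and 1331 at night. It fell by 0.79 ± 0.14 (adjusted p = 0.021), with all night pools below all day pools, and it did not pass without cKO ZT6 pool 1 (adjusted p = 0.084) or 2 (0.13), or without cKO ZT20 pool 1 (0.087) or 2 (0.099). Sik2, a kinase that holds CREB coactivators in the cytoplasm, read 3103, 3134 and 2581 by day and 4621, 5423 and 4950 at night. It rose by 0.77 ± 0.09 (adjusted p = 0.0038), beside 0.76 ± 0.09 in control, and with night pool 1 alone Sik2 was at 0.66 and Adcy1 at -0.94 (adjusted p = 0.10 for both). Akap5, an anchor that holds protein kinase A near its targets, read 554, 640 and 551 by day and 205, 182 and 286 at night, a difference of -1.33 ± 0.17 (adjusted p = 0.0044), and -1.43 with night pool 1 alone (adjusted p = 0.027).

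Other members of that list stayed short of the threshold. Crem, the cAMP-response modulator, read 343, 272 and 367 units by day and 586, 515 and 465 at night, with no overlap (0.65 ± 0.14, adjusted p = 0.076), beside 0.02 ± 0.14 in control. The phosphodiesterase Pde10a was at 0.51 ± 0.14 (adjusted p = 0.23), Fosl2 at 0.46 ± 0.17, Nr4a3 at 0.43 ± 0.18 and Dusp1 at 0.50 ± 0.13, all 4 with night pools above day pools. Drd4, the dopamine receptor through which light lowers photoreceptor cAMP, read 1694, 2260 and 1831 by day and 2683, 2134 and 3403 at night. Night pool 2 lay inside the day range, and the difference of 0.49 ± 0.19 did not pass (adjusted p = 0.49). In control retina Drd4 rose by 1.29 ± 0.19 (adjusted p = 0.0079), and the difference between genotypes, -0.80 ± 0.27, did not pass (adjusted p = 0.52). Aanat, the melatonin-making acetyltransferase, was below the filter, at 40.4 to 64.6 units in the cKO pools.

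Of 14 tested immediate early genes, 0 passed by limma (7 had an unadjusted p under 0.05: Fos, Junb, Egr2, Atf3, Ier2, Ier3 and Zfp36), while 12 were above 0 and 7 had night pools above all day pools, as did 6.09% of all genes. The list median was 0.32 in cKO and 0.35 in control. Fos read 2773, 1963 and 2496 units by day and 4231, 4256 and 3971 at night (0.79 ± 0.21, adjusted p = 0.21), so that the lowest night pool was well above the highest day pool. Atf3, a stress-induced factor, read 566, 762 and 731 against 1336, 916 and 1331 (0.78 ± 0.17, adjusted p = 0.096). Egr1 read 4914, 4372 and 4498 against 6046, 6328 and 6341 (0.44 ± 0.25, adjusted p = 0.72), and Egr2 161, 138 and 205 against 328, 279 and 241 (0.71 ± 0.22, adjusted p = 0.32). Egr2 stood at 10.7 to 26.8 units in all 6 control pools, far below every cKO pool. Junb was at 0.43 ± 0.20, Ier2 at 0.47 ± 0.21, Ier3 at 0.26 ± 0.08, Jun at 0.14 ± 0.12, Jund at 0.10 ± 0.07, Zfp36 at 0.38 ± 0.15, Klf4 at 0.24 ± 0.21, Btg2 at 0.06 ± 0.10, Egr3 at -0.12 ± 0.21 and Klf2 at -0.28 ± 0.23. Fosb, Fosl1, Egr4, Arc and Myc were below the filter. Fos and Egr1 passed when only the 6 cKO arrays were fitted (adjusted p = 0.044 and 0.038), Fos and Atf3 with array weights (0.037 and 0.014), Fos without control ZT6 pool 1 (0.0088), and Atf3 without cKO ZT20 pool 2 (0.04).

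**Figure D4:**
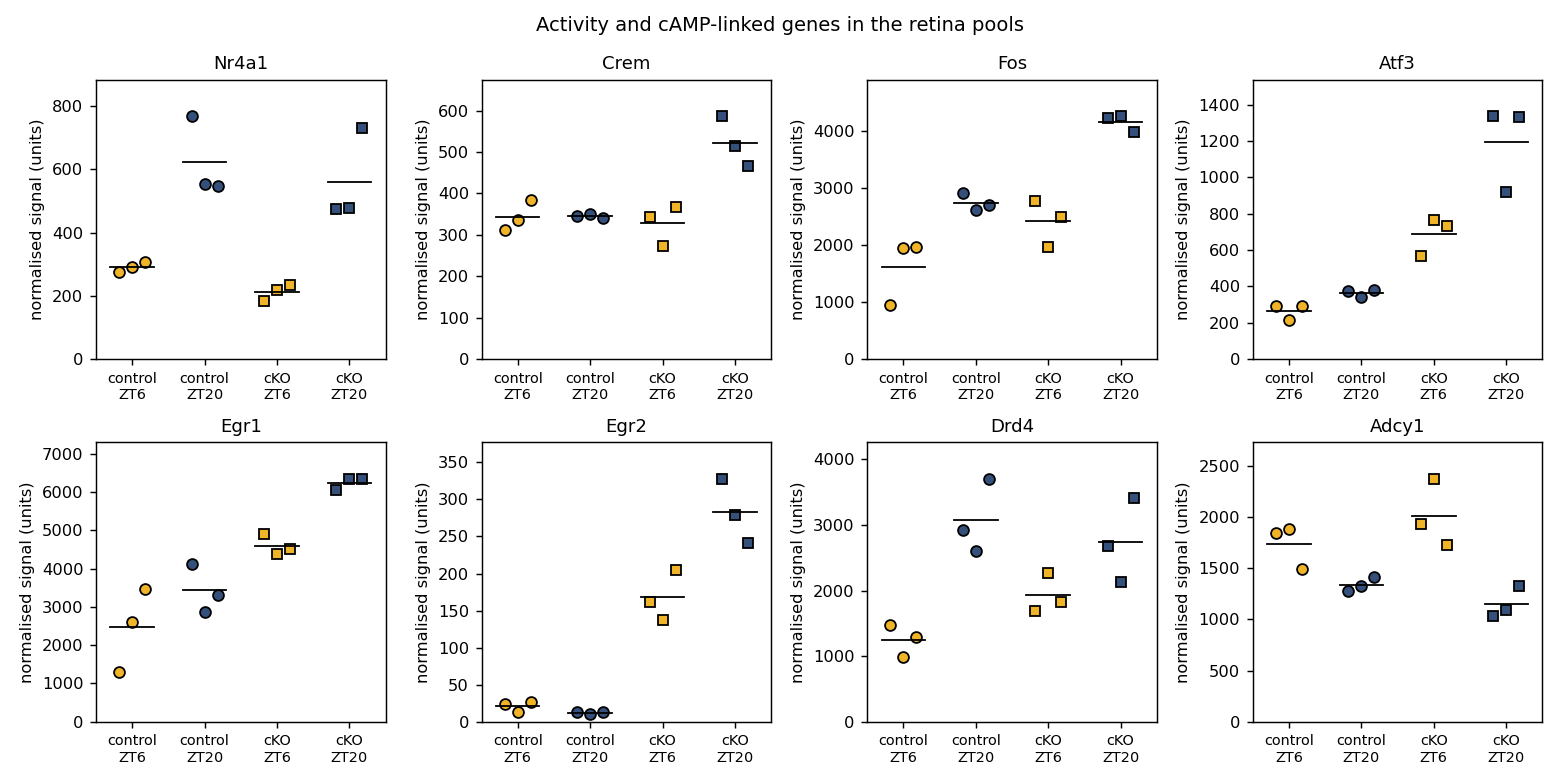
Normalised signal (units) of 8 activity and cAMP-linked genes in each retina pool, with circles for control, squares for cKO, yellow for ZT6, blue for ZT20 and lines at the group means. In cKO the night pools of Nr4a1, Crem, Fos, Atf3, Egr1 and Egr2 lie above all day pools and those of Adcy1 below, but only Nr4a1 and Adcy1 passed the test, and Drd4 overlaps.

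Of 20 tested genes of rod phototransduction 1 fell, Guca1b, which encodes the guanylate cyclase activating protein GCAP2 that restarts cGMP synthesis after light. It read 8527, 8723 and 8200 units by day and 6435, 6783 and 7224 at night, a difference of -0.32 ± 0.05 (adjusted p = 0.01), and -0.40 with night pool 1 alone (adjusted p = 0.04). It did not pass without cKO ZT6 pool 1 (0.064) or 2 (0.092). The list median was -0.04. Gnat1, the rod transducin, was at -0.02 ± 0.04, and Sag, the rod arrestin, at -0.04 ± 0.04, both at the top of the signal range, where quantile normalisation leaves few distinct values. Recoverin (Rcvrn) read 9854, 9747 and 9298 by day and 10655, 10352 and 10516 at night (0.13 ± 0.04, adjusted p = 0.37).

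Of 17 tested genes of outer segment structure and retinal dystrophy 0 passed by limma, 4 had an unadjusted p under 0.05 (Fscn2, Rp1l1, Crb1 and Impg1), and the median was 0.01 with a range from -0.72 to 0.32. Fscn2, a photoreceptor fascin that bundles actin, read 1391, 1596 and 1246 units by day and 767, 783 and 1008 at night (-0.72 ± 0.16, adjusted p = 0.10). Rp1l1, a microtubule protein of the photoreceptor axoneme, read 4031, 4066 and 3380 against 2486, 2945 and 3154 (-0.42 ± 0.10, adjusted p = 0.11). Night pools of both were below all day pools. Aipl1, a chaperone of the photoreceptor phosphodiesterase, read 3938, 4902 and 3829 by day and 3357, 6193 and 6995 at night (0.32 ± 0.19, adjusted p = 0.75). Night pool 1 was thus the lowest and night pools 2 and 3 the highest of the 6 for Aipl1. The summed signal of the photoreceptor transcription factors was likewise 28837 units in night pool 1 and 36395 and 36633 in pools 2 and 3, beside 28642 to 31818 by day, and Neurod1 is one of its members.

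Of the 12 tested cone genes 0 passed by limma (3 had an unadjusted p under 0.05, Opn1sw, Gngt2 and Cngb3) and the median was -0.07. Opn1sw, the short-wave cone opsin, read 5371, 4435 and 4867 units by day and 3876, 3956 and 4074 at night, with no overlap (-0.30 ± 0.08, adjusted p = 0.18). Opn1mw, the middle-wave cone opsin, read 518, 567 and 405 by day and 351, 1206 and 1149 at night. Night pool 1 was below all day pools, while night pools 2 and 3, those of higher Neurod1 signal, were above them (0.66 ± 0.34, adjusted p = 0.66, and 1.23, adjusted p = 0.0029, without night pool 1). The cone arrestin Arr3 was at -0.04 ± 0.12. Among 9 photoreceptor transcription factors 0 passed (by limma, with 3 at an unadjusted p under 0.05: Neurod1, Rorb and Prdm1), with Crx at 0.12 ± 0.05, Otx2 at -0.03 ± 0.06 and Nrl at 0.02 ± 0.08. Esrrb, the estrogen-related receptor beta that rods need for survival, was outside these lists and rose by 0.70 ± 0.10 (adjusted p = 0.0063). It read 3112, 3201 and 2591 by day and 4342, 4597 and 5589 at night, and its difference was 0.55 with night pool 1 alone (adjusted p = 0.15). Wdr31, a WD-repeat protein, read 2551, 2552 and 2225 by day and 3461, 4950 and 5378 at night. It rose by 0.89 ± 0.14 (adjusted p = 0.01), but by 0.5 with night pool 1 alone (adjusted p = 0.32), and its adjusted p was 0.051, 0.053 and 0.054 without cKO ZT6 pool 1, cKO ZT6 pool 3 and cKO ZT20 pool 2.

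Vip, Crh and Vgf were set side by side after their values were seen, as neuropeptide genes that fell, and no list of neuropeptides was tested. Vip, the vasoactive intestinal peptide of a class of amacrine cells, read 1233, 1425 and 1471 units by day and 960, 838 and 942 at night, a difference of -0.58 ± 0.11 (adjusted p = 0.036). Crh, the corticotropin-releasing hormone also made by amacrine cells, read 261, 288 and 235 against 106, 161 and 92.2, a difference of -1.06 ± 0.20 (adjusted p = 0.036). Vgf, a precursor stored in secretory granules and induced by activity, read 665, 914 and 790 against 376, 308 and 421, a difference of -1.07 ± 0.18 (adjusted p = 0.021). In all 3 genes every night pool was below every day pool. These calls were among the less stable ones: Vip did not pass without any 1 of 9 of the 12 pools (adjusted p up to 0.19), Crh without any of 7 (up to 0.2) and Vgf without any of 5 (up to 0.15). With night pool 1 alone they were at -0.51, -1.18 and -1.03 (adjusted p = 0.60, 0.12 and 0.30). Of the 13 tested amacrine genes Vip was the only one that passed, with a list median of -0.07. Npy was at 0.04 ± 0.15 and Tac1, a tachykinin precursor, at 0.00 ± 0.07, where control Tac1 fell by 0.43 ± 0.07 (adjusted p = 0.02) and the difference between genotypes did not pass (0.43 ± 0.10, adjusted p = 0.41).

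The next 6 genes passed singly, and the lists of metabolic genes fixed for this comparison held no gene that passed. Acadm, the medium-chain acyl-CoA dehydrogenase of fatty acid oxidation, read 2700, 2767 and 2632 units by day and 1811, 1545 and 1682 at night and fell by 0.68 ± 0.10 (adjusted p = 0.0063). Me1, the cytosolic malic enzyme that makes NADPH, read 4081, 4366 and 4010 against 2986, 2991 and 3320, a difference of -0.42 ± 0.07 (adjusted p = 0.018). Cirbp, an RNA-binding protein induced by cooling, read 3291, 2791 and 3132 against 2129, 2163 and 1801, a difference of -0.59 ± 0.09 (adjusted p = 0.01). Night and day pools of all 3 were clear of each other. Ahrr, the repressor of the aryl hydrocarbon receptor, read 2654, 2742 and 2312 against 1501, 1388 and 1768, a difference of -0.72 ± 0.11 (adjusted p = 0.008). Lpin2, a phosphatidate phosphatase of lipid synthesis, read 5155, 5015 and 4845 against 5912, 6547 and 6746, a rise of 0.35 ± 0.06 (adjusted p = 0.021), and Prkag3, a regulatory subunit of the AMP-activated kinase, 177, 202 and 164 against 334, 374 and 282, a rise of 0.81 ± 0.15 (adjusted p = 0.038). Acadm passed without any 1 pool, whereas Ahrr and Cirbp each did not pass without either of 2 pools (adjusted p up to 0.058 and 0.074), Me1 and Lpin2 without any of 5 (up to 0.13 and 0.11) and Prkag3 without any of 8 (up to 0.19). With night pool 1 alone Acadm was at -0.57 (adjusted p = 0.23), Me1 at -0.47 (0.15), Cirbp at -0.52 (0.21), Ahrr at -0.77 (0.084), Lpin2 at 0.24 (0.77) and Prkag3 at 0.84 (0.34).

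Of 15 tested genes of cholesterol synthesis 0 passed by limma, 15 lay at or below 0, and 6 had night pools entirely below the day pools, against 8.50% of all genes. The median was -0.11 in cKO and -0.13 in control. Lanosterol synthase (Lss), which closes the sterol rings, came closest: it read 1076, 1209 and 1100 units by day and 822, 804 and 807 at night (-0.47 ± 0.09, adjusted p = 0.057). The unadjusted p was under 0.05 for 5 of them, Lss, Sqle, Msmo1, Nsdhl and Fdps. Of 19 tested genes of glycolysis and lactate 0 passed by limma (3 had an unadjusted p under 0.05), with a median of 0.06 and 4 members with night pools above day pools, beside 6.09% of all genes: Hk2 (0.31 ± 0.09), Ldha (0.12 ± 0.04), Slc16a3 (0.31 ± 0.12) and Slc2a1 (0.09 ± 0.05). Hk2, the inducible hexokinase, read 5311, 4871 and 4612 by day and 5998, 6655 and 5753 at night (adjusted p = 0.23). Mitochondrial respiration (20 tested) and ribosomal proteins (9 tested) had medians of -0.03 and 0.03 with 0 genes that passed and 0 with an unadjusted p under 0.05 by limma.

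Irf7, the transcription factor that amplifies type I interferon, read 150, 248 and 301 units by day and 690, 681 and 980 at night, and rose by 1.71 ± 0.24 (adjusted p = 0.0063). The lowest night pool was above the highest day pool by more than the day pools differed among themselves, and with night pool 1 alone the difference was 1.55 (adjusted p = 0.18). Irf7 was the only one of 18 tested interferon and antigen presentation genes to pass, and the list median was 0.03. The interferon-induced genes Ifit1 and Ifit3 were at -0.19 ± 0.24 and 0.11 ± 0.18, and Irf9 at -0.02 ± 0.11. Ly75, the endocytic receptor DEC-205 of dendritic and epithelial cells, read 900, 672 and 742 by day and 293, 291 and 210 at night. It fell by 1.49 ± 0.22 (adjusted p = 0.0088), and did not pass without cKO ZT6 pool 1 (adjusted p = 0.064). Traf3ip3, an adaptor of TRAF signalling in lymphocytes, read 1079, 1120 and 1060 against 607, 553 and 690, a difference of -0.81 ± 0.11 (adjusted p = 0.0063). With night pool 1 alone Ly75 was at -1.34 (adjusted p = 0.23) and Traf3ip3 at -0.82 (0.10). Microglia and macrophage genes as a list had 0 of 12 that passed by limma, 0 with an unadjusted p under 0.05, and a median of 0.

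Bcl2, the anti-apoptotic founder of its family, read 537, 488 and 484 units by day and 711, 763 and 752 at night, a rise of 0.55 ± 0.10 (adjusted p = 0.028). It did not pass without any 1 of 7 of the 12 pools (adjusted p up to 0.16), and was at 0.49 with night pool 1 alone (adjusted p = 0.62). It was the only one of 11 tested cell death genes to pass. Bcl2l1 was at -0.18 ± 0.13, the pro-apoptotic Bcl2l11 at 0.12 ± 0.13 and the caspases Casp8 and Casp9 at 0.07 ± 0.25 and 0.03 ± 0.10. Reactive gliosis and acute phase genes, which mark injured Mueller glia, had 0 of 23 that passed by limma, 6 with an unadjusted p under 0.05, a median of 0.16, and 4 members with night pools above day pools, beside 6.09% of all genes. These were Serpina3n, Lif, Steap4 and Igfbp5. Steap4, a metalloreductase, read 317, 346 and 316 by day and 747, 527 and 564 at night (0.86 ± 0.23, adjusted p = 0.21). Gfap, the intermediate filament of reactive glia, read 2362, 2419 and 2431 by day and 3600, 2096 and 2628 at night, so that the night pools lay on both sides of the day pools (0.17 ± 0.23, adjusted p = 0.93). Edn2, an endothelin made by stressed photoreceptors, read 2478, 3188 and 2581 by day and 1601, 1120 and 2080 at night (-0.81 ± 0.31, adjusted p = 0.47), and the Mueller glia gene Rlbp1 was at -0.09 ± 0.06.

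Aqp1, a water channel of photoreceptors, amacrine cells and choroid plexus, read 2596, 2832 and 2856 units by day and 4484, 3788 and 4885 at night. It rose by 0.66 ± 0.09 (adjusted p = 0.0063), and by 0.7 with night pool 1 alone. Control retina had mean Aqp1 signals of 2007 units by day and 4088 at night. Zdhhc5, a palmitoyltransferase of neuronal membranes, read 2300, 2594 and 1960 against 4140, 3854 and 4193, a rise of 0.83 ± 0.12 (adjusted p = 0.0063). Both had night pools far above every day pool. Col19a1, a fibril-associated collagen chain, read 701, 576 and 525 against 215, 202 and 205, a difference of -1.45 ± 0.18 (adjusted p = 0.0044). Antxr2, a receptor for extracellular matrix and anthrax toxin, read 1818, 1690 and 1731 against 951, 782 and 969, a difference of -0.95 ± 0.13 (adjusted p = 0.0063), with a wide gap between the groups. Ctnnal1, alpha-catulin, read 1683, 1687 and 1824 against 2740, 2911 and 2753, a rise of 0.69 ± 0.11 (adjusted p = 0.018). With night pool 1 alone Zdhhc5 was at 0.86 (adjusted p = 0.12), Col19a1 at -1.40 (0.10), Antxr2 at -0.86 (0.15) and Ctnnal1 at 0.66 (0.34).

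The other genes that rose were Tom1l1, an endosomal sorting adaptor (0.78 ± 0.15, adjusted p = 0.048), Otor, a secreted protein of the inner ear (0.54 ± 0.10, adjusted p = 0.037), and Ptprz1, a receptor phosphatase of glia (0.48 ± 0.09, adjusted p = 0.046). They did not pass without any 1 of 9, 9 and 10 of the 12 pools (adjusted p up to 0.23, 0.22 and 0.19), and with night pool 1 alone they were at 0.90, 0.59 and 0.37 (adjusted p = 0.30, 0.32 and 0.77). The other genes that fell were Taf4b, a subunit of the general factor TFIID (-0.95 ± 0.16), the cilia genes Ccdc113 (-0.86 ± 0.15) and Cfap61 (-0.75 ± 0.12), the clone gene 2810454H06Rik (-0.84 ± 0.13), Ehd4, an ATPase of endocytic recycling (-0.64 ± 0.10), Glb1l2, a beta-galactosidase relative (-0.64 ± 0.11), and Pcmtd2, a methyltransferase-domain protein (-0.31 ± 0.05). Their adjusted p ran from 0.0088 for 2810454H06Rik to 0.021 for Taf4b, Ccdc113 and Pcmtd2. Taf4b did not pass without any 1 of 6 pools, Ccdc113, Cfap61, Ctnnal1, Glb1l2 and Pcmtd2 without any of 5, 2810454H06Rik without any of 3 and Ehd4 without either of 2, with adjusted p up to 0.14, 0.14, 0.12, 0.11, 0.11, 0.15, 0.054 and 0.084. With night pool 1 alone Taf4b was at -1.04 (adjusted p = 0.23), Ccdc113 at -0.82 (0.32), Cfap61 at -0.78 (0.21), 2810454H06Rik at -0.80 (0.24), Ehd4 at -0.58 (0.32), Glb1l2 at -0.74 (0.10) and Pcmtd2 at -0.34 (0.21).

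Lists of other retinal cells and of tissues around the retina had no gene that passed beyond those named. The median was 0.10 for 14 tested bipolar genes, with 12 above 0, 2 below and a range from -0.36 to 1.24. In this list 3 members had night pools above all day pools and 1 below, beside 6.09% and 8.50% of all genes. The protein kinase Prkca was below 0, at -0.15 ± 0.07. Medians were 0.02 for 19 Mueller glia genes, 0.00 for 5 horizontal cell genes and -0.02 for 12 ganglion cell genes. The list of pigment epithelium and visual cycle genes had a median of 0.30, with 4 of 15 members, Mitf, Pmel, Tyrp1 and Dct, above day in all night pools, beside 6.09% of all genes, and Rpe65, the retinoid isomerase, at 0.53 ± 0.20 (adjusted p = 0.46). Its summed signal ran from 23882 to 34931 units by day and from 30271 to 37686 at night. Lens crystallins had a median of 0.86 in cKO and -1.19 in control, with 15 of 15 cKO values above 0 and no list member with non-overlapping pools. Without cKO ZT20 pool 1 and cKO ZT6 pool 3, the pools with the most muscle and lens signal, 23 genes passed.

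**Figure D5:**
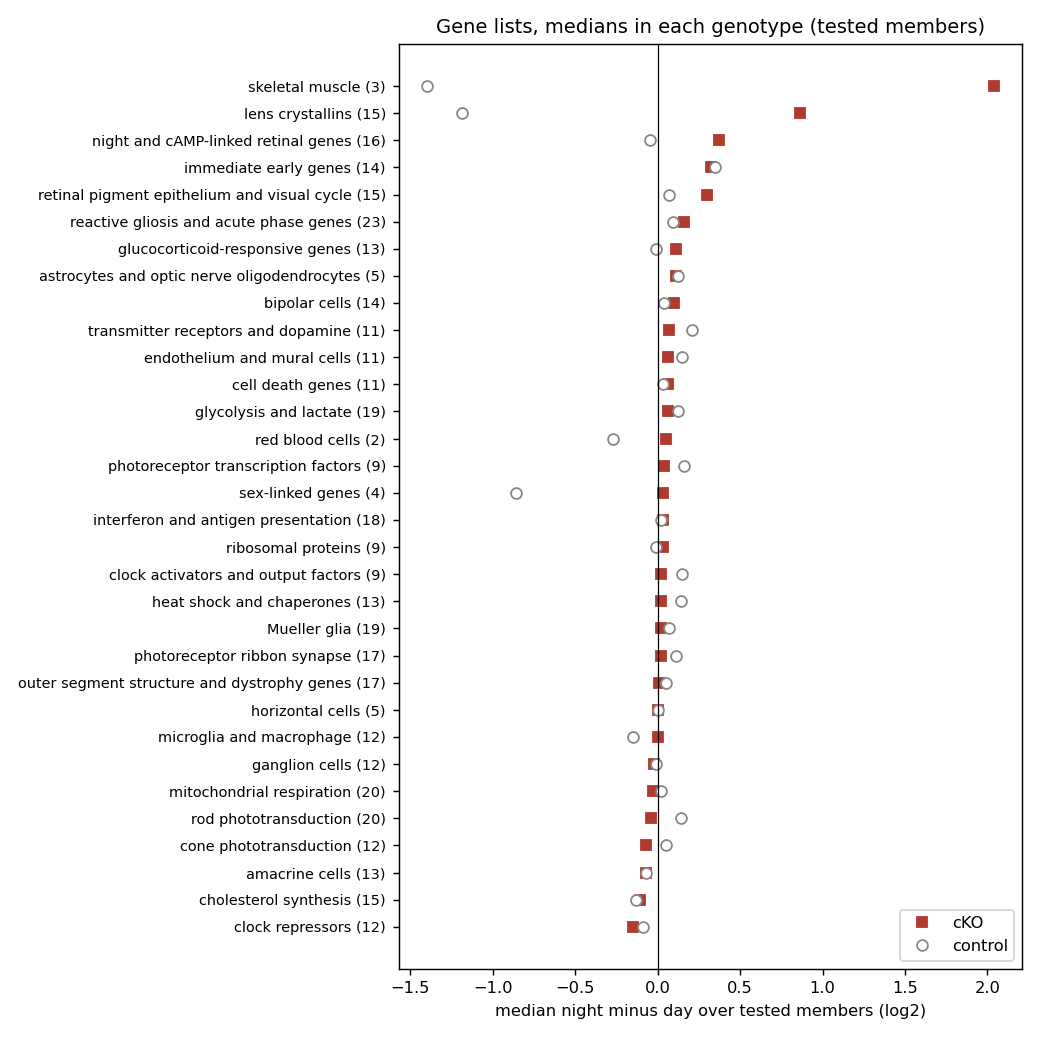
Median night minus day difference (log2) over the tested members of each gene list, with red squares for cKO, open circles for control and the number of tested members in brackets. The medians of most lists lie between -0.15 and 0.16 in cKO, and those furthest from 0 are skeletal muscle at 2.04 and lens crystallins at 0.86, whose signal was uneven between pools of 1 group.

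The same contrast in control retina was used to see where the cKO stands apart. In control 146 genes passed (1.25%), 82 higher at night (0.701%) and 64 lower (0.547%), a number that fell to 18, 28, 19, 44 and 25 when control ZT6 pool 1 or 2 or control ZT20 pool 1, 2 or 3 was left out. With median centring 93 control genes passed, 68 higher and 25 lower, and with the deposited values 16, 12 higher and 4 lower. The Y-linked gene Eif2s3y read 6304, 5851 and 5049 units in the control day pools and 3466, 1755 and 3097 in the control night pools and fell by 1.10 ± 0.23 (adjusted p = 0.042), while its cKO pools overlapped (-0.12 ± 0.23). The median of the 4 tested sex-linked genes was -0.86 in control and 0.03 in cKO, and the part of this in the control results was not tested. The 2 comparisons share no array, but they share the estimate of spread. Of the 38 cKO genes 34 had the same sign in control and 18 passed there in the same direction (9 higher and 9 lower), which is 47.4% of the cKO genes and 12.3% of the control genes, and 0 passed in opposite directions. Of the 146 control genes 119 had the same sign in cKO. Across all 11693 genes, which are not independent, the cKO and control differences correlated at r = 0.16, and across the 146 control genes at r = 0.76. The 4 cKO genes of opposite sign in control were Ly75 (0.61 ± 0.22 in control), Prkag3 (-0.07 ± 0.15), Tom1l1 (-0.10 ± 0.15) and Cfap61 (0.01 ± 0.12).

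The difference between genotypes was tested directly. Of 11693 genes 0 passed (0%) by limma, 941 had an unadjusted p under 0.05, and the smallest adjusted p was 0.0748, so no gene is called particular to the cKO here. Ly75 and Dio2 shared that smallest value. Ly75 differed by -2.10 ± 0.31 between genotypes, with control pools at 94.3 to 190 units by day and 198 to 276 at night. Dio2, the deiodinase that activates thyroid hormone, read 1350, 1187 and 1479 in the cKO day pools and 1267, 1317 and 1254 in the night pools, with overlap (-0.06 ± 0.11), whereas it fell by 1.17 ± 0.11 in control (adjusted p = 3.7e-04). The difference between genotypes was 1.11 ± 0.16, and it passed without control ZT6 pool 1 (1.22, adjusted p = 0.03). Neurod1 itself passed for the difference without cKO ZT20 pool 1 (2.7, adjusted p = 0.035).

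Further genes were ranked by the unadjusted p of that difference. Of these, Fastkd2, Stxbp2, Sorl1 and Aqp4 had cKO values nearer 0 than their control changes, whereas Tom1l1 passed in cKO and not in control. Fastkd2, a mitochondrial RNA-binding protein, was at 0.00 ± 0.09 in cKO and fell by 0.66 ± 0.09 in control (difference 0.66 ± 0.12, adjusted p = 0.28), and Stxbp2, a syntaxin-binding protein of secretion, at -0.01 ± 0.13 against a fall by 0.85 ± 0.13 (difference 0.84 ± 0.18, adjusted p = 0.36). In the opposite direction Sorl1, a sorting receptor, was at -0.15 ± 0.08 in cKO and rose by 0.47 ± 0.08 in control (difference -0.62 ± 0.11, adjusted p = 0.26), and Aqp4, the water channel of Mueller glia, at 0.10 ± 0.06 against 0.50 ± 0.06 (difference -0.41 ± 0.09, adjusted p = 0.36). The heat shock gene Hspa1a read 329, 432 and 352 units by day and 264, 259 and 365 at night in cKO (-0.32 ± 0.15), beside a rise of 0.70 ± 0.15 in control (difference -1.02 ± 0.22, adjusted p = 0.36). Differences of Inpp5f (0.45), Pstk (0.69), Ciao2a (0.36), Agr2 (1.70), Tom1l1 (0.88), Sparcl1 (-0.68), Opn1sw (-0.53), Klf9 (-0.36) and Atrn did not pass either. Agr2 stood at 2 to 10.8 units in the cKO day pools, where the added constant of 16 units bounds any fold change.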

How the data were processed

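RNA of pooled retinas was extracted, amplified with the NuGEN Ovation system and hybridised to Affymetrix Mouse Genome 430 2.0 arrays, per the labels' protocols. The deposited values are probe set intensities on a linear scale, made by the authors with GCOS per the submitters' processing notes. The GCOS version and any scaling were, in the sources used here, not given. The number of arrays limits the precision.

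Of 45101 probe sets, 34945 carried 1 gene symbol in the platform annotation, 932 several, 9160 none and 64 were controls. Each gene was read from its probe set with the highest mean over 24 arrays, but probe sets of the _x_at type were used only where a gene had no other. Intensities plus 16 units were put on the log2 scale and quantile normalised over the 12 retina arrays, which makes small signals change less in log2. Printed signals are these values turned back to units. Genes above the array median on at least 3 arrays were tested with limma 3.58.1 in R 4.3.3 (4 group means, eBayes with trend, Benjamini-Hochberg adjusted p below 0.05), after the script was tested on simulated data. Every p-value printed is limma's and two-sided. An exact permutation test of 3 pools against 3 cannot go below p = 0.1.

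Named were Neurod1, the 12 largest rises and falls that passed, and the members of the clock and immediate early lists. For the difference between genotypes, where no gene passed, the 8 genes of smallest unadjusted p in each direction were named. Of the other lists, the passing or most abundant members were named. The remaining genes that passed and a few list members were added after their values were seen. All members, lists and tests were chosen with earlier results of these data known. Of the list members 448 matched a gene on the arrays and 52 did not. Alternatives varied normalisation, added constant, filter, variance model, probe set choice, pool number, array weights and the pools used.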

Additional observations from a re-analysis of the deposited data

How the results depend on the processing

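The 38 genes that passed in cKO kept their sign under all alternatives in which they were tested. For alternatives that only left out pools this was fixed in advance, because their night and day pools did not overlap. The Neurod1 difference, which did not pass, went from 1.73 to -0.49 without cKO ZT20 pools 2 and 3. With deposited values 6 passed in cKO and 16 in control, and with array weights 103 and 77. Without both cKO ZT20 pools of higher Neurod1 signal 11 passed in cKO, and 2 (Acta1 and Tnnc1, both muscle genes) for the difference between genotypes, where the main count was 0. Leaving out 1 pool gave 13 to 45 genes in cKO, 18 to 183 in control and 0 to 1 for the difference, and moved the Neurod1 difference between 1.14 and 2.85. When the 6 cKO arrays were fitted alone, 26 passed in cKO, 12 higher and 14 lower. In control, 93 passed with median centring and 61 when the 6 control arrays were fitted alone. For the difference, 2 passed with trimmed-mean scaling and 2 with robust eBayes, in both cases Dio2 and Ly75. Of the alternatives chosen after seeing the data, leaving out cKO ZT20 pool 1 and cKO ZT6 pool 3 gave 23 in cKO, 66 in control, 1 for the difference (Neurod1) and a Neurod1 change of 2.47 (adjusted p = 2.2e-07), and the lens covariate gave 49 in control. The cause of these moves was not tested.

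The main fit did not pair samples by pool number. Deviations of same-numbered cKO pools correlated at -0.49 to -0.24 and those of control pools at -0.16 to 0.4. With 3 pools a group these values cannot settle whether pools were paired. With the replicate block 25 genes passed in cKO, 45 in control and 0 for the difference. Settings of the added constant, the filter, the probe set choice, the variance trend and normalisation over 24 arrays kept the cKO count between 37 and 42. Each group had 3 pools, and values near the top of the range or near the added constant understate differences.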

Other observations

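Lists of chaperones, glucocorticoid-responsive genes and ribbon synapse genes were also counted. Of 13 tested heat shock and chaperone genes 0 passed in cKO by limma (3 had an unadjusted p under 0.05), 4 had night pools above all day pools (beside 6.09% of all genes), and the median was 0.02, while in control 2 rose. Of 13 tested glucocorticoid-responsive genes 0 passed (4 had an unadjusted p under 0.05), 10 were above 0, and the median was 0.11 in cKO and -0.01 in control. Of 17 tested photoreceptor ribbon synapse genes 0 passed in cKO (3 had an unadjusted p under 0.05), with a median of 0.02, while 2 rose in control.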
